A study of Mus musculus with 2 samples.

Results

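The formative and primed state factors are 9 genes chosen by name: Zic2, Zic5, Foxd3, Otx2, Pou3f1, Utf1, Sall2, Fgf5 and Grhl2. They and the lists set beside them were chosen with earlier results of these data known. No contrast of them with all genes is independent of that choice. All 9 were found among the 55414 gene identifiers of the count tables. RNA-seq reads per gene were compared between 2 libraries of mouse embryonic stem cells, an Adriamycin library (0.5 µM, 8 h) and an untreated library labelled 0 h. Both came from R1E, a wild-type line, grown with serum and the cytokine LIF, under which mouse stem cells hold back from differentiating. Adriamycin is doxorubicin, which traps topoisomerase II on DNA and leaves breaks. The question put to the data is which transcripts differ in drug-treated cells. With 1 library per condition there are no replicates, so no test was run and every value describes these libraries. Culture, library preparation and time in culture cannot be told apart from the drug.

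Mouse pluripotent cells pass from a naive state, as in the embryo before implantation, through a formative state to a primed state, as in the epiblast after implantation. Otx2, a homeodomain factor, and Pou3f1 (Oct6), a POU factor, act with the core factor Pou5f1 on enhancers that open in the formative state, and Fgf5 is a secreted growth factor widely used to mark the epiblast at that stage. Zic2 and Zic5 are zinc finger factors, Foxd3 is a forkhead factor, Grhl2 is a Grainyhead-like factor of epithelial enhancers, Sall2 is a Spalt-like zinc finger factor, and Utf1 is a chromatin-associated protein found in embryonic stem cells and the early epiblast.

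Promoters are shown for Zic5, Foxd3 and Utf1, members that were lower in the Adriamycin library and have 1 start site each in the RefSeq promoter table. Of the 9 members 6 matched that table, not Zic2, Pou3f1 or Grhl2. The sequences run 5′ to 3′ along the gene, 250 bases before to 50 after the start, on build GRCm38.p6. Capitals mark matches on either strand to any of 6 motifs, a set written after the sequences had been seen. They are the GC box GGGCGG, the box named by its letters CCAAT, the TATA box written as TATAAA, the E-box written as CACGTG, the cyclic AMP response element written as TGACGTCA and the octamer written as ATGCAAAT.
Zic5, chr14:122465609-122465908, minus strand: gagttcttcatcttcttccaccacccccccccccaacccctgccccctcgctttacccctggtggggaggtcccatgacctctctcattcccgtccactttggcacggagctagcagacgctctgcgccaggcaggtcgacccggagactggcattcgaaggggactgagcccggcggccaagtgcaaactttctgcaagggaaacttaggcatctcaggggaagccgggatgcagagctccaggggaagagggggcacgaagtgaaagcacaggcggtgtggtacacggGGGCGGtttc
Foxd3, chr4:99656049-99656348, plus strand: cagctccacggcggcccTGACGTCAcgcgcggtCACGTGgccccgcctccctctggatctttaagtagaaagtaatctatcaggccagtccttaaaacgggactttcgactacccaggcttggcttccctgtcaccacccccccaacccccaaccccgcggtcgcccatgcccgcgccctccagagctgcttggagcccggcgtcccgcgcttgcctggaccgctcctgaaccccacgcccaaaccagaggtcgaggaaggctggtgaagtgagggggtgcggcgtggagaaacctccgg
Utf1, chr7:139943606-139943905, plus strand: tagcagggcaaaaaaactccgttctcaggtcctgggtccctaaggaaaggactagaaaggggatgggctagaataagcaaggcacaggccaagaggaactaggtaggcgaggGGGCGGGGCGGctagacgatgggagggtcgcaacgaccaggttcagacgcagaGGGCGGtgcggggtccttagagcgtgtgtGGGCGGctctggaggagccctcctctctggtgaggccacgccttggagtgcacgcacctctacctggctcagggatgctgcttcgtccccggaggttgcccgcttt
The Utf1 window held 4 GC boxes, the first pair sharing a base, and that of Zic5 held 1. GC boxes were in 35.7% of the 32851 mouse promoters of this length. The Foxd3 window held 1 cyclic AMP response element and 1 E-box, which 1.79% and 7.15% of promoters held. None of the 6 motifs was shared by all 3 windows. The 3 were rich in G and C, with 62.7% in Zic5, 65.7% in Foxd3 and 62.0% in Utf1, against a median of 52.7% over all promoters. They held 15, 25 and 17 CG pairs, against a median of 7. Member windows not shown varied more in G and C. Those of Otx2, another lower member, held 41.7% to 53.7%, those of Sall2 30.3% and 65.0%, and that of Fgf5 68.3%. These matches describe the letters in each window only.

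Of the 8 members that were measured (a mean of at least 1 CPM, the count scaled to library size, over both libraries), 6 were at least 2-fold lower in the Adriamycin library and 0 were at least 2-fold higher. Zic2, Zic5 and Foxd3 differed most, each at least 4-fold lower, followed by Otx2, Grhl2 and Utf1, while Sall2 and Pou3f1 stayed within 2-fold. Fgf5 lay under the filter. Among all 14871 measured genes 6.95% were at least 2-fold lower and 17.0% at least 2-fold higher, and 0.706% were at least 4-fold lower. All 8 log2 ratios were below 0, as were 51.6% of all. The members' median log2 ratio of Adriamycin over untreated was -1.54, beside -0.03 over all measured genes. With total counts as library sizes Utf1 missed 2-fold (-0.995), which left 5 lower members. In bulk RNA fewer cells of a type and less RNA per cell cannot be told apart.

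**Figure D1:**
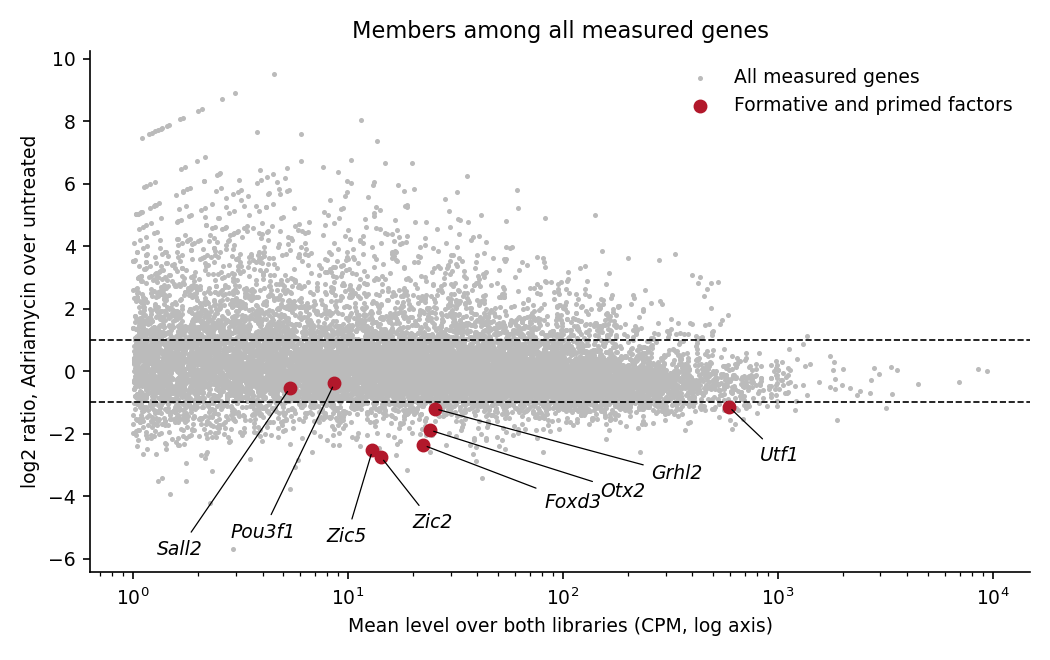
The log2 ratio of Adriamycin over untreated (y axis) is plotted against the mean level over both libraries (x axis, CPM, log scale) for all 14871 measured genes in grey and the 8 measured members in red, with dashed lines at 2-fold. Of the members 6 lie under the lower line, and Sall2 and Pou3f1 lie between the lines.

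The total was 38561292 reads in the Adriamycin library and 41820999 in the untreated library. Of the 7 markers listed for embryonic stem cells, all measured, 4 were at least 2-fold lower with Adriamycin (Zfp42, Nanog, Esrrb and Tdgf1) and 0 were higher. The lower ones are 57.1%, beside 6.95% of all measured genes, and the median log2 ratio was -1.03. Zfp42, Nanog and Esrrb are counted again on the naive list below, and Tdgf1 on the FGF and Nodal list. With total counts Esrrb (-0.91) and Tdgf1 (-0.88) missed 2-fold. The level per length of the 7 summed to 9244 TPM with Adriamycin and 12104 TPM without, and Dppa5a alone gave 5869 TPM with and 5887 TPM without. The 8 fibroblast markers, listed for feeder cells, summed to 50.1 TPM with Adriamycin and 28.2 TPM without. Of 4 measured among them, Col1a1, a collagen gene, was 5.92-fold higher, which is 25% beside 17.0% of all measured genes. The other 4 (Col3a1, Postn, Dcn and Lum) had no read in either library. Mesendoderm markers summed to 43.5 TPM with Adriamycin and 35.9 TPM without, but went apart: of 6 measured, Mesp1 was 15.0-fold higher (206 reads with Adriamycin, 13 without), Eomes 5.20-fold lower and T 5.32-fold higher. Of these 6, 33.3% were higher, beside 17.0% of all measured genes, and 16.7% lower, beside 6.95%. Neuroectoderm markers summed to 155 TPM with and 277 TPM without, of which Tubb3 alone gave 147 TPM with and 268 TPM without. Among 4 measured, Pax6 was 6.06-fold lower (25 reads with Adriamycin, 151 without), which is 25% of them beside 6.95% of all measured genes. Upper-quartile factors gave 2 lower. Trophoblast markers summed to 81.0 TPM with and 55.6 TPM without, with 0 of 3 measured past 2-fold, or 1 with total counts. Tfap2c alone gave 73.0 TPM with and 47.9 TPM without. The part of these markers in the members' values was not tested. All 8 genes of a p53 target list were at least 2-fold higher with Adriamycin (100%, beside 17.0% of all measured genes), with a median log2 ratio of 2.82. By the distance of their intervals from no difference, the foremost were Fas, Trp73, Plk2, Mdm2, Btg2 and Ccng1, from 3.46-fold higher (Ccng1) to 67.7-fold higher (Fas). The fold of Fas is imprecise, with 793 reads with Adriamycin and 11 without (log2 ratio 6.08, counting interval 5.30 to 7.15).

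Zic2 and Zic5, zinc finger genes that stand side by side on chromosome 14 in opposite directions, were lower by similar amounts. Zic2 (ENSMUSG00000061524, chromosome 14, 122712847 to 122717264, GRCm39) had 149 reads, 3.67 CPM, in the Adriamycin library and 986 reads, 24.8 CPM, in the untreated one. That is 6.73-fold lower, a log2 ratio of -2.75 with a 95% counting interval of -3.01 to -2.50. The interval covers counting error only. Paired reads were counted with no option to count pairs as fragments, so mates count separately, and with counts divided by 2 the interval was -3.13 to -2.40. Intervals elsewhere are from undivided counts unless stated, and are narrower for that reason. The ratio of Zic2 was the 17th lowest of the measured genes. Zic5 (ENSMUSG00000041703, 122694207 to 122703089) had 154 reads with Adriamycin and 881 without (log2 ratio -2.54, -2.80 to -2.30), the 30th lowest ratio. The intervals of the pair overlap. Per length, the level of Zic2 was 1.64 times that of Zic5 in the Adriamycin library (1.30 to 2.07) and 1.90 times in the untreated library (1.73 to 2.08). These intervals overlap. Zic1 had 25 reads with Adriamycin and 6 without, under 1 CPM, and Zic4 had 0 in both libraries, where a count of 0 allows up to 3 reads.

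The transcripts between and around the Zic pair did not all move alike. The span from the end of Zic5 to the start of Zic2 is 9757 bases. It holds 2610035F20Rik, on the strand opposite to Zic2 and ending 235 bases from it, with 7 reads in the Adriamycin library and 111 in the untreated library, 15.1-fold lower (log2 ratio -3.92, -5.36 to -2.92). No exon of it overlaps Zic2 or Zic5. The next measured genes outward differed little, Pcca with a log2 ratio of -0.41 and Clybl with -0.21, at 54471 and 54560 bases. Of 8 other measured genes with start sites within 500 kb of Zic2, 2 were at least 2-fold lower (Zic5, itself a member, and 2610035F20Rik). In the same window 1 was higher. Among all measured genes 6.95% were lower and 17.0% higher.

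Foxd3 had the third largest difference and again a noncoding neighbour that was lower. Foxd3 is a single-exon gene (ENSMUSG00000067261, chromosome 4, 99544536 to 99546859) with 294 reads, 7.25 CPM, in the Adriamycin library and 1491 reads, 37.5 CPM, in the untreated library. It was 5.16-fold lower (log2 ratio -2.37, -2.56 to -2.19). Gm12688, on the opposite strand and 1315 bases away, had 50 reads with Adriamycin and 179 without (log2 ratio -1.86, interval -2.35 to -1.41). Alg6, the nearest measured gene on the other side, had -0.33. Foxd3 held 94.3% of the summed level of Foxd1 to Foxd4 in the Adriamycin library and 99.2% in the untreated one, and none of the other 3 reached 1 CPM. An unnamed gene that overlaps the Foxd3 exon by 89 bases had 0 reads in both libraries.

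**Figure D2:**
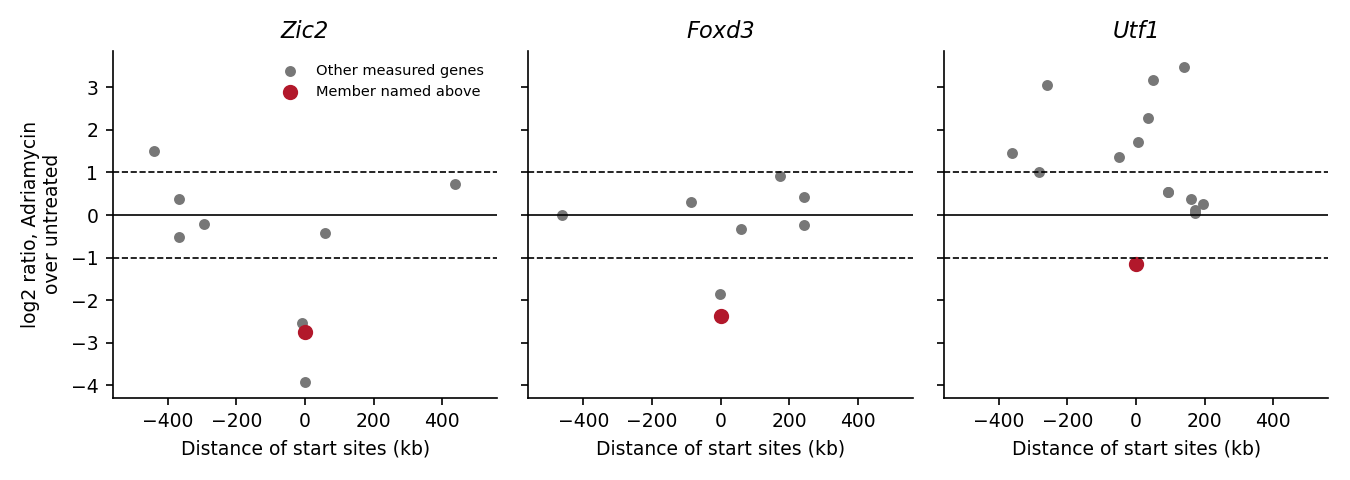
Each panel plots the log2 ratio of Adriamycin over untreated (y axis) of a member in red and of the other measured genes in grey, against the distance of their start sites (x axis, kb, positive downstream of the member). Near Zic2 and Foxd3 the close neighbours are low and the rest lie nearer to 0, whereas around Utf1, 8 of 14 genes lie at or above the upper dashed line of 2-fold.

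Utf1 was by far the most abundant member and was lower amid neighbours that were higher. Utf1 (ENSMUSG00000047751, chromosome 7, 139523702 to 139525025) had 14951 reads in the Adriamycin library and 32319 in the untreated one, which is 1153 TPM with Adriamycin and 2356 TPM without. It was 2.20-fold lower (log2 ratio -1.14, -1.17 to -1.11). Kndc1, which ends 2251 bases before Utf1 on the same strand, was 2.57-fold higher, with 2693 reads in the Adriamycin library and 1028 in the untreated one. Gm16201 on the other side was 3.26-fold higher, with 91 reads with Adriamycin and 27 without. Among the 14 other measured genes with start sites within 500 kb, 8 were at least 2-fold higher, beside 17.0% of all measured genes, and 0 were lower, beside 6.95%.

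The homeodomain gene Otx2 was lower and the POU gene Pou3f1 was not past 2-fold. Otx2 (ENSMUSG00000021848, chromosome 14, 48895134 to 48911276) had 414 reads, 10.2 CPM, in the Adriamycin library and 1502 reads, 37.8 CPM, in the untreated library, 3.70-fold lower (log2 ratio -1.89, -2.05 to -1.73). Its exons overlap those of Otx2os1 on the opposite strand, with 15 reads with Adriamycin and 9 without, and of Gm49154, with 4 with and 3 without. Reads could not be told apart by strand. Otx1, its paralog, had 18 reads in each library. Pou3f1 (ENSMUSG00000090125, chromosome 4, 124550600 to 124554448) had 303 reads in the Adriamycin library and 390 in the untreated one (log2 ratio -0.39, interval -0.61 to -0.17). Like Foxd3 it is a single-exon gene on chromosome 4, and their intervals lie far apart. Its paralogs were scarce: Pou3f3 had 48 reads with Adriamycin and 19 without, Pou3f4 had 9 with and 5 without, and Pou3f2 had 0 with and 2 without. Exons of Pou3f1 overlap those of Gm2164 on the opposite strand, which had 0 reads in both libraries.

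Grhl2, which acts at epithelial enhancers, was lower while its paralogs were not. It is the longest member (ENSMUSG00000022286, chromosome 15, 37233280 to 37363813), spanning 130534 bases with 17 merged exons. The Adriamycin library held 622 reads of it, 15.3 CPM, and the untreated library 1403 reads, 35.3 CPM, 2.30-fold lower (log2 ratio -1.20, -1.34 to -1.06). Gm16136 on the opposite strand overlaps its exons by 169 bases and had 8 reads with Adriamycin and 34 without. Grhl3 had 2584 reads with Adriamycin and 1634 without (log2 ratio 0.63, 0.54 to 0.72). Grhl1 had 799 reads with and 531 without (0.56, 0.40 to 0.72), so neither reached 2-fold. Under each of the 4 scalings tried, Grhl2 lay below 0 and both paralogs above 0. Per length, Grhl2 made up 6.32% of the summed Grhl level with Adriamycin and 19.3% without, and Grhl3 81.1% with Adriamycin and 69.4% without.

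Sall2 was the lowest measured member in the untreated library and differed less than its paralogs. Sall2 (ENSMUSG00000049532, chromosome 14, 52548629 to 52566219) had 177 reads in the Adriamycin library and 253 in the untreated one (log2 ratio -0.54, -0.83 to -0.26). Sall1 was 3.35-fold lower, with 3659 reads with Adriamycin and 12041 without. Sall3 was 2.18-fold lower (365 reads with, 781 without) and Sall4 2.15-fold lower (11445 reads with, 24160 without). With total counts as library sizes, Sall3 (-0.98) and Sall4 (-0.96) missed 2-fold. Sall2 gave 1.15% of the summed level of the 4 Sall genes with Adriamycin and 0.685% without. The nearest measured genes on either side of Otx2, Pou3f1, Grhl2, Sall2 and Fgf5 were each within 2-fold. Their log2 ratios ran from -0.75 (Exoc5, beside Otx2) to 0.76 (Tmem260, also beside Otx2). Many lay far off, with gaps from 6043 bases (Mettl3, beside Sall2) to 1906716 bases (Dad1, on the other side of Sall2).

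**Figure D3:**
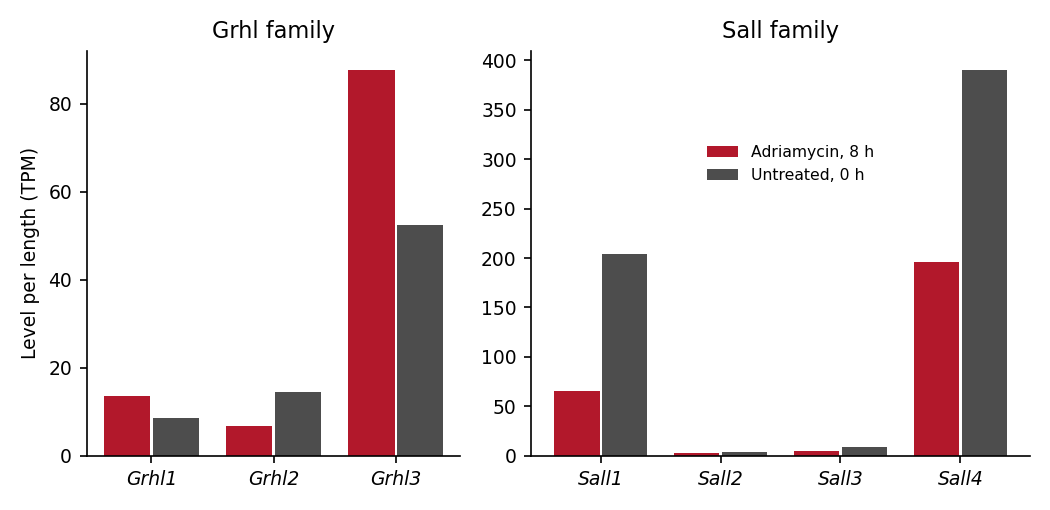
Bars give the level per length (y axis, TPM) of each gene of the Grhl and Sall families in the Adriamycin library (red) and the untreated library (grey), 1 library each. Grhl2 and all 4 Sall genes have shorter red than grey bars, and Grhl1 and Grhl3 have taller red bars.

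Fgf5, the growth factor that marks the epiblast after implantation, was near the detection limit in both libraries. Fgf5 (ENSMUSG00000029337, chromosome 5, 98402043 to 98424889) had 10 reads in the Adriamycin library and 16 in the untreated library, which is 0.378 TPM with Adriamycin and 0.572 TPM without. The counting interval of its log2 ratio, -2.01 to 0.52, spans no difference and a 4-fold lower level, so no difference was detectable at this depth.

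Ordered by level per length, the Adriamycin library ran Utf1, Foxd3, Otx2, Pou3f1, Grhl2, Zic2, Sall2, Zic5 and Fgf5. The untreated library ran Utf1, Foxd3, Otx2, Zic2, Zic5, Grhl2, Pou3f1, Sall2 and Fgf5. Below Utf1 the levels reached 12.0 TPM (Foxd3) with Adriamycin and 57.4 TPM without. Zic2 and Zic5 thus stood above Grhl2 and Pou3f1 without the drug and below them with it. Neighbours whose counting intervals overlap were Pou3f1 with Grhl2 and Sall2 with Zic5 in the Adriamycin library, and Otx2 with Zic2 and Zic5 with Grhl2 in the untreated library. Utf1 made up 96.1% of the members' summed level with Adriamycin and 93.5% without, so that sum describes Utf1.

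**Figure D4:**
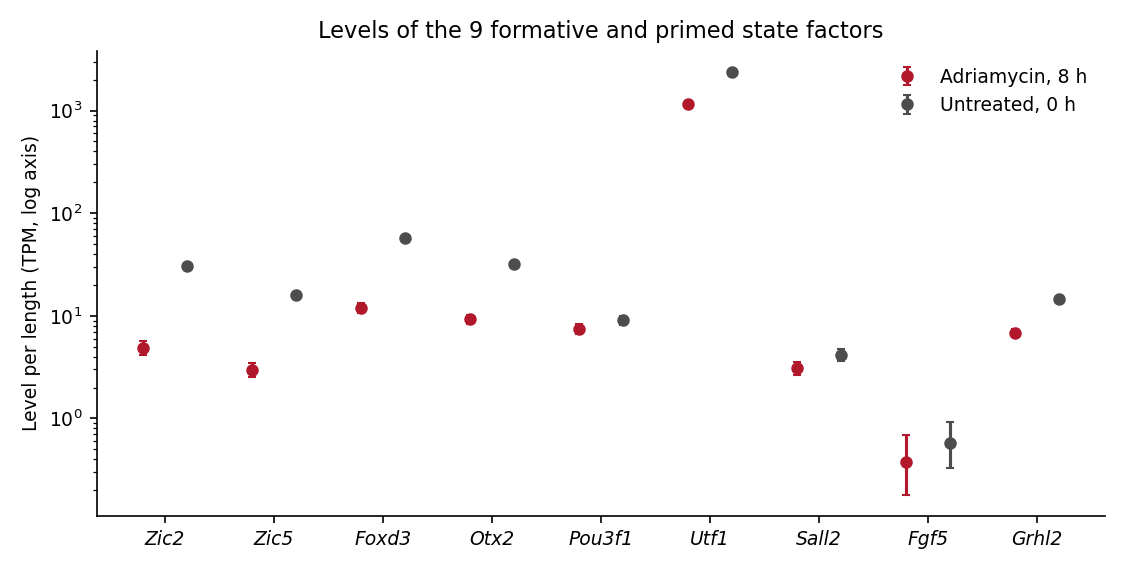
The level per length (y axis, TPM, log scale) of each of the 9 members is plotted for the Adriamycin library (red) and the untreated library (grey), with 95% Poisson counting intervals and 1 library each. The red point lies under the grey one for every member, and the intervals of Pou3f1 and Fgf5 overlap.

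By the size of the ratio, and by counting error alone, the members fell into steps. Of the 28 pairs of measured members, 5 had overlapping counting intervals: the 3 pairs among Zic2, Zic5 and Foxd3, Grhl2 with Utf1, and Sall2 with Pou3f1. Otx2 overlapped none with undivided counts. With counts divided by 2, the intervals of Foxd3 (-2.635 to -2.113) and Otx2 (-2.116 to -1.663) overlapped. The separate step of Otx2 was thus not kept with counts divided by 2. Single-exon Foxd3 and Pou3f1 lay in different steps. Of the measured members with 3 merged exons, Zic2 and Zic5 shared a step and Sall2 lay in another. Chromosome 14 held 4 members (Zic2, Zic5, Otx2 and Sall2), with ratios from -2.75 to -0.54. Any part of exon number or chromosome in the ratios was not tested.

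**Figure D5:**
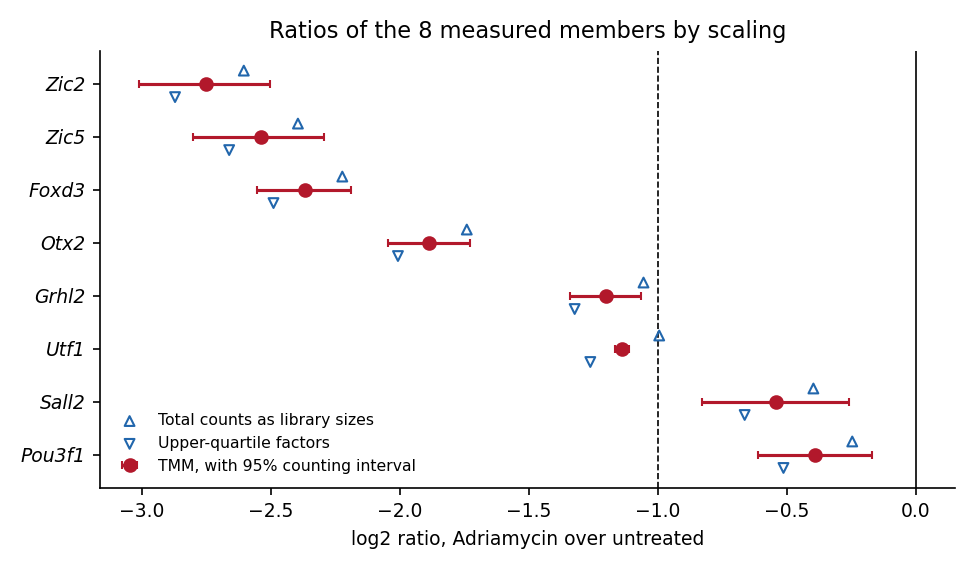
The log2 ratio of Adriamycin over untreated (x axis) is given for the 8 measured members, as TMM values with 95% counting intervals (red) and with 2 other scalings (open triangles). All values lie under 0, and of the 6 lower members only Utf1, with total counts, has a value to the right of the dashed 2-fold line.

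Other genes of the formative and primed states were lower in part. Of a list of 34 names, 33 were found and 23 measured, with 10 at least 2-fold lower (43.5%, beside 6.95% of all measured genes), 1 higher and 12 within 2-fold, and a median log2 ratio of -0.88. With total counts 8 were lower, and with upper-quartile factors 12. Eomes, a T-box factor, was 5.20-fold lower, with 119 reads with Adriamycin and 609 without. The secreted factor Fgf15 was 4.14-fold lower (193 reads with, 786 without), the Wnt effector Lef1 4.14-fold (389 reads with, 1581 without) and the SRY-box factor Sox11 2.98-fold (181 reads with, 530 without). Exons of Eomes, Fgf15 and Lef1 overlap those of genes on the opposite strand that had at most 26 reads in either library. The higher gene was T (brachyury), a mesoderm factor, at 5.32-fold, with 89 reads with Adriamycin and 16 without. Eomes and T are also on the mesendoderm list above, and the name not found, Tbxt, is another symbol of T. The list also holds paralogs of the members, and Sall1 and Sall3, described above, are among the 10 lower genes. The de novo DNA methyltransferase genes Dnmt3a and Dnmt3b were 2.41-fold and 2.06-fold lower, and with total counts Dnmt3b (-0.90) missed 2-fold.

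Naive factors, which mark the earlier state, were lower as well. Of 15 measured, 10 were at least 2-fold lower (66.7%, beside 6.95% of all measured genes) and 0 higher, with a median log2 ratio of -1.21, and with total counts 8 were lower. Sall4, described above as a paralog of Sall2, is among the 10 lower. Prdm14, a PR domain factor, had 423 reads with Adriamycin and 2634 without (6.34-fold lower). The nuclear receptor genes Nr0b1 and Nr5a2 were 5.98-fold and 3.92-fold lower, the homeobox gene Gbx2 5.97-fold and the zinc finger gene Zfp42 3.69-fold. Exons of Gbx2 overlap those of an opposite-strand gene with 61 reads with Adriamycin and 231 without. Nanog, counted here among the naive factors and often grouped with the core factors, had 7436 reads with Adriamycin and 23059 without, 3.16-fold lower. The other core factors, Pou5f1 (-0.51) and Sox2 (-0.42), were within 2-fold. No difference between these lists and the members was tested.

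Of 19 genes of the FGF and Nodal pathways, which act upstream of the formative transition, 12 were within 2-fold, with a median log2 ratio of -0.33. At least 2-fold higher were 4 (21.1%, near the 17.0% of all measured genes), and 3 were lower (15.8%, beside 6.95%), or 2 with total counts, where Tdgf1 missed 2-fold. The ligand gene Nodal had 9688 reads with Adriamycin and 3331 without (log2 ratio 1.51), and Lefty1, a Nodal antagonist, 10030 with and 3039 without (1.69). The receptor gene Fgfr4 was 6.79-fold higher and the signal transducer Smad3 2.34-fold higher. Spry4 and Spry2, feedback inhibitors of FGF signalling, were 2.43-fold and 2.28-fold lower. The ligand gene Fgf4 had a log2 ratio of -0.33.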

How the data were processed

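The authors deposited an unnormalized count of reads for every gene of each library. These came from featureCounts 2.0.3, per the file headers, run on paired reads over the exons of GRCm39 annotation release 105, with no strand option and no option to count pairs as fragments. The submitters' processing notes list the counter as featureCounts 1.6.0, the aligner HISAT2 2.0.4 and the trimmer Trim Galore 0.3.4, beside DESeq2 1.16.1, FastQC and the builds mm9 and mm10. Counter version and build differ from the headers, and coordinates follow the headers. Exon lengths are the deposited ones. The gene name table gave symbols for 52081 of 55414 identifiers.

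Library sizes were scaled with TMM (edgeR 4.0.16), with factors of 1.05 for Adriamycin and 0.951 for untreated. CPM, TPM and log2 ratios (pseudocount 0.5 read) were computed in Python 3.11.15 for genes averaging 1 CPM or more, with a 2-fold rule of size and exact 95% conditional binomial (Clopper-Pearson) or Poisson intervals, which cover counting error only. Mates and PCR copies are not independent molecules. The code was tested on simulated data. Alternatives were total counts, upper-quartile and DESeq2 1.42.0 factors, other filters, pseudocounts and folds, and counts divided by 2.

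The members and lists were chosen with earlier results of these data known. All 9 members are named, with up to 6 genes past 2-fold per list (those whose interval lay farthest from no difference), paralogs, nearest measured neighbours and genes with overlapping exons. Dnmt3a, Dnmt3b, the core factors and Fgf4 were named after their values were seen. Some neighbours within 2-fold and paralogs under 1 CPM are given as a group, and a further gene that the rule covers is not reported here.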

Additional observations from a re-analysis of the deposited data

How the results depend on the processing

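All 54 recomputed log2 ratios of the 8 measured members stayed below 0, and 53 stayed on their side of 2-fold, Utf1 with total counts being the exception. The count of 54 overstates the check, because a filter on low counts does not enter a ratio and those values repeat the main ones. A pseudocount of 2 reads or counts divided by 2 could move them little (Zic2 -2.74 and -2.75). The other scalings moved them more, Zic2 from -2.61 with total counts to -2.87 with upper-quartile factors. Total counts moved the median of all genes to 0.12 and upper-quartile factors to -0.15, against -0.03 with TMM, and genes higher with Adriamycin were 80.2%, 61.6% and 71.0% of those called. The members' median log2 ratio was -1.20 with no filter on low counts, which adds Fgf5, and -2.13 with a mean of at least 10 CPM, which removes Pou3f1 and Sall2. At 4-fold, 3 members were lower. Of 84 list counts 80 stayed within 1.5 times. No paired analysis was possible because each condition has 1 library. With 1 library per condition the counting interval is the only error available, and depth limits Fgf5 most.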

Other observations

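Most epithelial genes, listed beside the Grainyhead-like factors, were within 2-fold. Of 19 measured, 14 were within 2-fold, 2 were at least 2-fold higher with Adriamycin (10.5%, beside 17.0% of all measured genes) and 3 were lower (15.8%, beside 6.95%), with a median log2 ratio of -0.03. That median was 0.11 with total counts, which gave 4 higher genes, and -0.15 with upper-quartile factors, which gave 1. Esrp1, an epithelial splicing regulator, was 6.36-fold lower with 139 reads in the Adriamycin library and 870 in the untreated one. The tight junction gene Cldn3 was 2.76-fold lower (176 reads with Adriamycin, 478 without), and Epcam, a cell adhesion gene, 2.23-fold lower (3190 with, 6981 without). St14, a membrane protease gene, was 4.55-fold higher (17111 reads with Adriamycin, 3686 without), and Cldn4, another tight junction gene, 2.06-fold higher (8715 with, 4148 without), which upper-quartile factors put under 2-fold (0.92 on the log2 scale).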
